A study of Mus musculus with 6 samples.

Results

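Transcripts of cholesterol synthesis and de novo lipogenesis were examined in mouse bone marrow-derived macrophages (BMDMs) with and without deletion of *Scd2*, which encodes stearoyl-CoA desaturase 2. The set has 31 genes, taken from the count table by gene name, out of 40481 genes counted. It was read as a sterol branch of 19 genes, a group of 5 regulators that act on sterol and fatty acid synthesis, and a fatty acid branch of 7 genes. All 31 were found in the count table, and 30 had enough counts to be tested. RNA sequencing was performed on unstimulated macrophages in 3 wild-type (WT) and 3 *Scd2*-m/-m libraries, the latter labelled Scd2-KO. The *Scd2*-m/-m mice carried floxed *Scd2* alleles and lysozyme M-Cre, which deletes in the myelomonocytic lineage. The sources used here do not say whether the WT mice carried the floxed alleles or the Cre. The age and sex of the mice behind each library are not given either. The study as a whole used both sexes at 2 to 5 months, and sex-linked transcripts of these libraries are given below. Marrow cells were differentiated in medium with CMG-conditioned medium as the source of growth factor. The labels do not say whether the replicates of a genotype came from separate mice, so p-values measure the spread between these libraries, which may be technical.

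Cholesterol is built from acetyl-CoA through mevalonate, farnesyl pyrophosphate, squalene and lanosterol, and fatty acids are built from the same acetyl-CoA through malonyl-CoA. Transcription of both branches is driven by the sterol regulatory element-binding proteins (SREBPs), membrane-bound factors that SCAP escorts from the endoplasmic reticulum to the Golgi for cleavage and that INSIG proteins hold back when sterols are plentiful. SREBP2, encoded by *Srebf2*, acts mostly on sterol genes, and SREBP1, encoded by *Srebf1*, mostly on fatty acid genes, which include the *Scd* desaturases. In macrophages these pathways supply membrane lipid and are turned down by cholesterol taken up from other cells and particles.

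The 6 libraries held between 46285176 and 57629638 counts on genes. *Scd2* itself stood at 66.9, 77.8 and 62.7 CPM (counts scaled to a common library size) in WT replicates 1 to 3 and at 59.5, 38.0 and 39.8 CPM in *Scd2*-m/-m replicates 1 to 3. The *Scd2*-m/-m values were lower without overlap, at a mean of 66.2% of WT, but the difference did not pass the test (log2 fold change -0.59, SE 0.19, edgeR FDR 0.10). The paper reports a larger fall of *Scd2* transcript by qPCR in macrophages of these genotypes. Counts here cover the whole gene, and the sources used here do not say which exons are floxed or which the qPCR read. *Scd1*, another desaturase gene, stood at 10.4, 13.8 and 8.64 CPM in WT and at 37.0, 21.8 and 18.8 CPM in *Scd2*-m/-m libraries (log2 fold change 1.24, SE 0.34, edgeR FDR 0.0778). Its groups did not overlap, but the difference missed the threshold, and the paper found no compensatory rise of *Scd1* by qPCR. Macrophage markers were abundant in all libraries, with a summed level of 36169 to 37478 CPM over 7 genes in WT and 20518 to 21127 CPM in *Scd2*-m/-m. Of these 7, 4 were lower in *Scd2*-m/-m and 1 was higher. The largest of the falls, and the largest term of the sum, was *Lyz2*, the gene into which lysozyme M-Cre is inserted. Its means were 22751 CPM in WT and 9029 CPM in *Scd2*-m/-m. *Adgre1*, *Csf1r* and *Mertk* stood at 71.2%, 77.0% and 79.8% of the WT level. *Cd68* was the higher one, at 117%, and *Itgam* and *Fcgr1*, both at 93.5%, did not pass the test. All 8 markers of dividing cells were higher in *Scd2*-m/-m, with summed levels of 40.4 to 49.1 CPM in WT and 132 to 139 CPM in *Scd2*-m/-m. Of 8 monocyte and progenitor markers 6 were higher (47.4 to 67.4 against 145 to 206 CPM), with *Ccr2* as the largest term (means 47.8 and 115 CPM). Of 9 tested neutrophil markers 6 were higher (22.4 to 26.0 against 34.8 to 45.0 CPM). Their largest term, *Mmp8*, was lower in *Scd2*-m/-m (means 12.5 and 10.1 CPM, edgeR FDR 0.146). *Cd34* of the progenitor markers was also lower (means 0.718 and 0.509 CPM, edgeR FDR 0.570), and neither passed the test. Markers of fat cells summed to at most 0.181 CPM and those of hepatocytes to at most 0.0860 CPM in any library. *Xist* stood at 658 to 750 CPM in WT and at 736 to 842 CPM in *Scd2*-m/-m libraries. The Y-linked genes *Ddx3y*, *Eif2s3y* and *Kdm5d* had 0 CPM in all 6 libraries and *Uty* at most 0.121 CPM, the pattern of female cells. Among markers of B cells, T cells, stroma and erythroid cells *Cd79a* alone was called (means 0.232 and 0.591 CPM, higher in *Scd2*-m/-m), while *Ighm* at 86.5 and 88.4 CPM and *Cd4* at 35.8 and 35.7 CPM were the abundant ones. The part of these differences in the values below was not tested, and in such bulk samples fewer cells of a type and less RNA per cell cannot be told apart.

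Most genes of sterol and fatty acid synthesis were transcribed at similar levels in WT and *Scd2*-m/-m macrophages. A gene was called where its edgeR FDR was below 0.05. Of the 30 tested members 3 were called, or 10% of them. Over all 14778 genes tested, 17.5% were called, 9.65% as higher and 7.84% as lower in *Scd2*-m/-m. The called members were *Srebf2* and the sterol reductase gene *Tm7sf2*, both lower, and the acetyl-CoA synthetase gene *Acss2*, which was higher. The sterol branch thus held 1 called gene of 19, the regulators 1 of 5 and the fatty acid branch 1 of 6 tested. No member had an absolute log2 fold change above 2, the second threshold of the study, which together with the FDR 0.663% of all tested genes passed.

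Fitted log2 fold changes lay on both sides of 0 within each branch, although most did not pass the test. The median log2 fold change was 0.02 in the sterol branch, 0.0080 in the regulators and 0.05 in the fatty acid branch, against 0.0039 over all genes tested. The median size of the change, regardless of sign, was 0.12 over the 30 members. It was 0.16 over all genes tested, and 0.12 over the 9980 of them at or above the level of *Me1*, the member next in level above the barely detected *Mlxipl*. Of those 9980 genes 21.0% were called. The groups did not overlap for 8 members, against 34.9% of all tested genes. The *Scd2*-m/-m values were the higher ones for 4 of the 8 and the lower ones for 4, against 17.9% and 17% of all tested genes. An unadjusted p below 0.05 was reached by 9 members, and by 30.2% of all tested genes. Among the 27 members that were tested and not called, the 95% interval of the log2 fold change stayed within 0.5 on either side of 0 (a 1.41-fold change) for 24. *Acat2*, *Idi1* and *Mlxipl* were the exceptions.

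**Figure D1:**
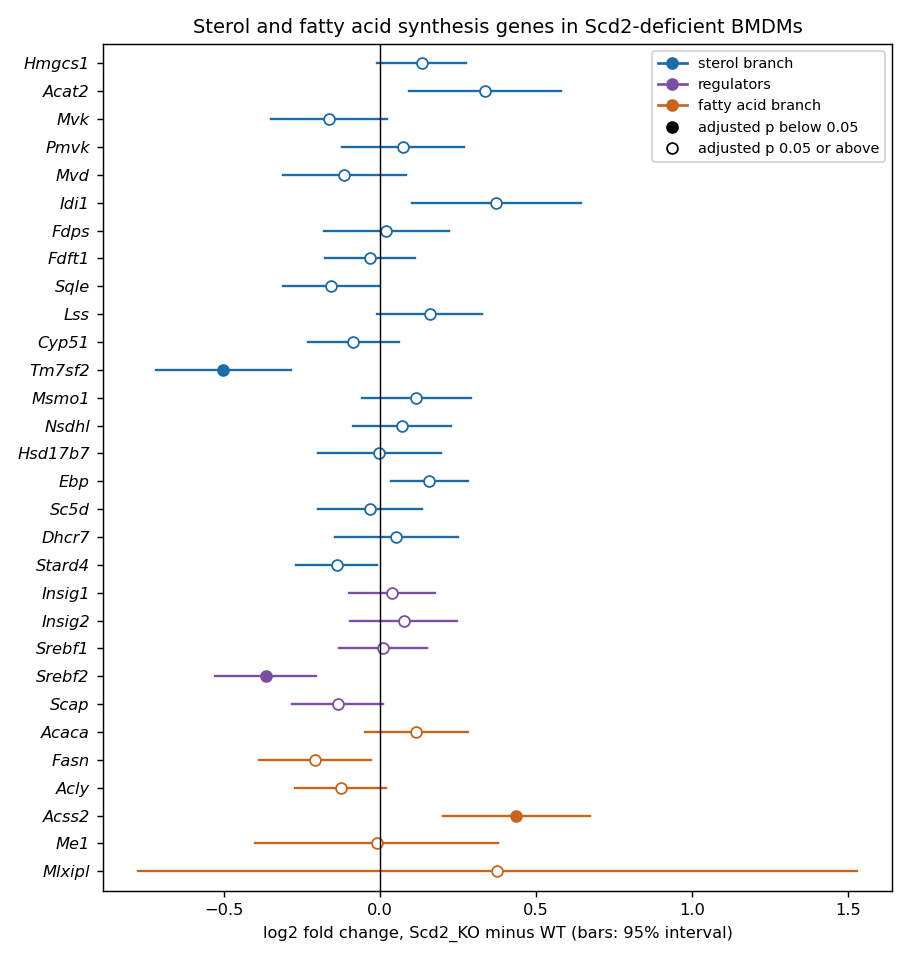
The log2 fold change of each tested member (*Scd2*-m/-m, written Scd2_KO on the axis, minus WT) is drawn with its 95% interval from the edgeR fit. Members are grouped and coloured by branch. Filled points mark *Tm7sf2*, *Srebf2* and *Acss2*, the 3 members with an FDR below 0.05. Most other intervals include 0, and *Mlxipl* has by far the widest.

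Among the regulators, *Srebf2* fell and the other 4 did not pass the test. *Srebf2* (ENSMUSG00000022463, GRCm38 chr15:82147181-82205379, plus strand) stood at 449.7, 418.1 and 394.9 CPM in WT libraries and at 360.8, 318.2 and 299.8 CPM in *Scd2*-m/-m libraries. The highest *Scd2*-m/-m library was below the lowest WT library. The means were 421 ± 27.5 and 326 ± 31.3 CPM (SD, n = 3 each), so that *Scd2*-m/-m macrophages held 77.5% of the WT level (log2 fold change -0.37, SE 0.08, 95% interval -0.53 to -0.20, edgeR FDR 0.00404). The call held under all 15 alternative fits, with log2 fold changes from -0.45 to -0.31.

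*Srebf1* (ENSMUSG00000020538), the sister gene with the stronger tie to fatty acid synthesis, stood at 111.2, 110.2 and 108.4 CPM in WT and at 119.2, 111.5 and 100.8 CPM in *Scd2*-m/-m libraries. The WT values lay inside the range of the *Scd2*-m/-m values (log2 fold change 0.0080, 95% interval -0.13 to 0.15, edgeR FDR 0.954). Per kb of exon, the *Srebf2* level was 3.17, 2.98 and 2.86 times the *Srebf1* level in the WT libraries and 2.37, 2.24 and 2.33 times in the *Scd2*-m/-m libraries. The ratio was thus lower in every *Scd2*-m/-m library (means 3.00 ± 0.159 and 2.31 ± 0.0691, SD, n = 3 each). Its exact two-sided permutation p was 0.1, the smallest that 3 against 3 libraries allow.

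*Scap*, the escort of SREBPs, stood at 76.2, 72.5 and 72.2 CPM in WT and at 70.4, 69.9 and 60.7 CPM in *Scd2*-m/-m libraries. Its groups did not overlap, but the difference missed the threshold (log2 fold change -0.14, 95% interval -0.28 to 0.01, edgeR FDR 0.198). *Insig1*, an SREBP target as well as a brake on the pathway, stood at 123.1, 120.1 and 112.4 CPM in WT and at 130.9, 116.0 and 118.2 CPM in *Scd2*-m/-m libraries, and the groups overlapped (log2 fold change 0.04, 95% interval -0.10 to 0.18). Its relative *Insig2* stood at 17.9, 20.01 and 18.7 CPM in WT and at 20.5, 18.3 and 20.8 CPM in *Scd2*-m/-m libraries, again with overlap (log2 fold change 0.08, 95% interval -0.10 to 0.25). Per kb of exon, the ratio of *Insig1* to *Insig2* averaged 7.07 ± 0.566 in WT and 6.89 ± 0.456 in *Scd2*-m/-m (SD, n = 3 each, exact permutation p = 0.8).

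**Figure D2:**
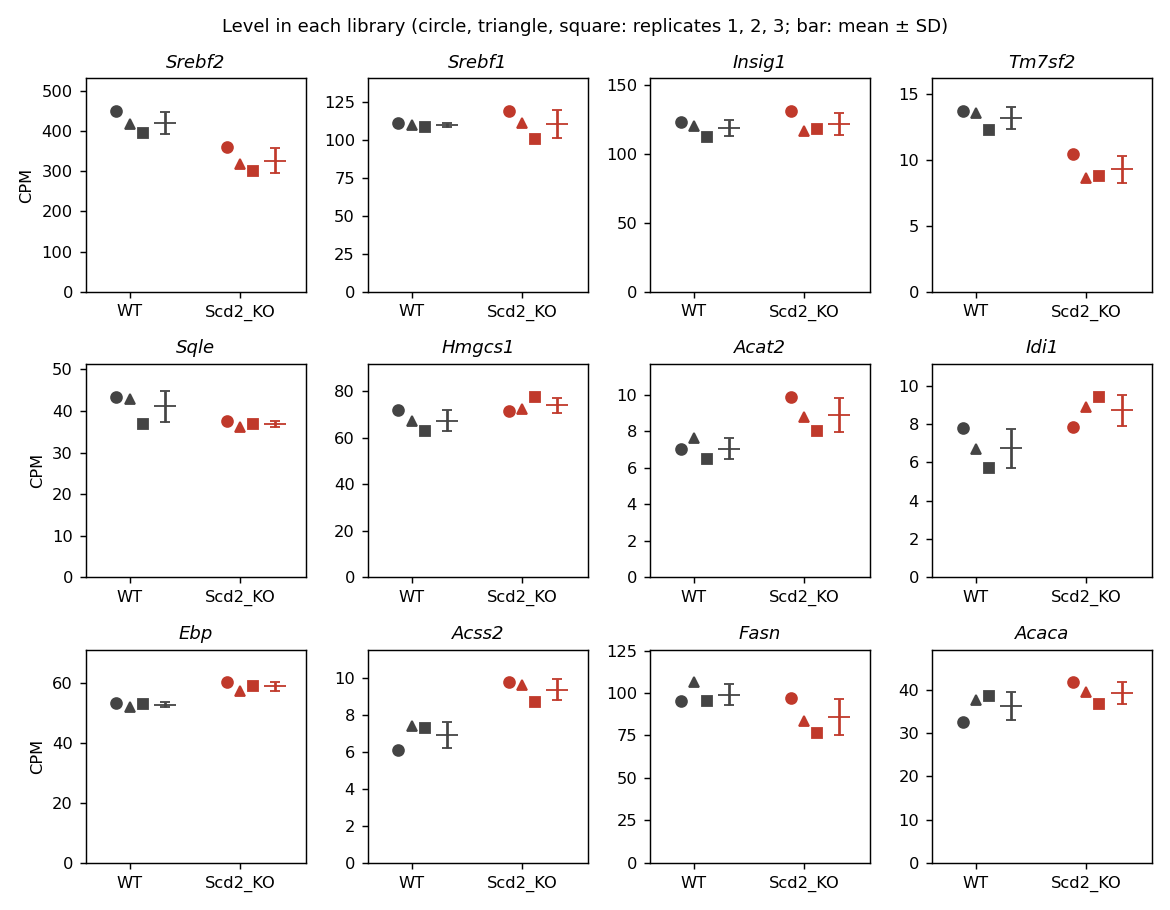
The CPM of 12 members is plotted for each library (circle, triangle and square for replicates 1, 2 and 3) beside the mean ± SD of its group, on axes that start at 0. The groups separate for *Srebf2*, *Tm7sf2*, *Acat2*, *Idi1*, *Ebp* and *Acss2*, and overlap for *Srebf1*, *Insig1*, *Sqle*, *Hmgcs1*, *Fasn* and *Acaca*.

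The DNA upstream of the 3 called members is shown because SREBPs and their partner factor NF-Y act through short motifs close to the transcription start, with *Hmgcs1*, a sterol gene that was not called, for comparison. Each line gives the 250 bases before the start that RefSeq annotates in GRCm38.p6, on the strand of the gene. Capitals mark the sterol response element TCACNCCAC, its variant ATCACNCCA and the NF-Y motif CCAAT, which reads ATTGG on the other strand. The variant was added to the search after the sequences were seen.
*Srebf2*, chr15:82147019-82147268, plus strand: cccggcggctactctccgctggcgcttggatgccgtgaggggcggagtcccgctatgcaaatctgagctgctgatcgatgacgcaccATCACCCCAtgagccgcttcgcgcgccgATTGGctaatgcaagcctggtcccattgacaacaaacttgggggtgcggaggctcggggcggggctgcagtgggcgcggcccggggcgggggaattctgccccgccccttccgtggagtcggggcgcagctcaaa
*Tm7sf2*, chr19:6067851-6068100, minus strand: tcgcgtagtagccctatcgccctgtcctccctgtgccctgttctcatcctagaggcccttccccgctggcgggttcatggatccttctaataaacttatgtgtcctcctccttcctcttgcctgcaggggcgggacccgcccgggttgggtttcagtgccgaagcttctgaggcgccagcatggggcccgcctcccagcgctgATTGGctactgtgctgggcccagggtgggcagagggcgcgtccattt
*Acss2*, chr2:155517793-155518042, plus strand: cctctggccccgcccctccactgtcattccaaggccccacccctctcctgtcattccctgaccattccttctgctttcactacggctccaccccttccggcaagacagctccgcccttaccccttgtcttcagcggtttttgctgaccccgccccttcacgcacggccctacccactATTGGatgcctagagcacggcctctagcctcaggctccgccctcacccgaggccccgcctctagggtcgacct
*Hmgcs1*, chr13:119690101-119690350, plus strand: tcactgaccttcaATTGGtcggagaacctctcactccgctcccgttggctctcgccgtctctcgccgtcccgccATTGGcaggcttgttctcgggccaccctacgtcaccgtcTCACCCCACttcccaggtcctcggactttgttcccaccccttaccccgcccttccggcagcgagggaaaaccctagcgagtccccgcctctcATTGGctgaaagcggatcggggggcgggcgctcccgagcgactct
The GENCODE annotation places a start of *Srebf2* and of *Acss2* within these windows and one of *Tm7sf2* upstream of its window.

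In these windows *Srebf2* had ATCACCCCA at -163 and ATTGG at -135, counted from the base before the start at -1 to the first base of the match. *Tm7sf2* had 1 match to CCAAT, at -47, and *Acss2* had 1, at -73, and neither had a match to the sterol response element or its variant. *Hmgcs1*, whose level did not pass the test, had TCACCCCAC at -137 and 3 matches to CCAAT, at -237, -176 and -45. Upstream windows were given for 27 of the 31 members, the others being *Fdps*, *Fdft1*, *Sqle* and *Stard4*. CCAAT on either strand occurred in 23 of the 27 (85.2%), against 37.5% of the 27025 genes with a window and 40.4% of the 10188 of them that were tested. The GC box GGGCGG, the motif of SP1, also occurred in 23 members (85.2%, against 35.4% of all windows and 62.2% of tested genes). The E-box CACGTG, read by USF and MLX factors, occurred in 6 (22.2%, against 6.86% and 9.85%). TCACNCCAC occurred in *Hmgcs1* and *Mlxipl* alone (7.41%, against 1.23% and 1.29%), and ATCACNCCA in *Srebf2* alone (3.70%, against 0.822% and 0.550%). ATCACNCCA was added after the *Srebf2* sequence was seen, so its match there was known in advance and its shares cannot be compared. Members with the CCAAT motif included all 3 called genes and most of the genes that were not called. A match is a run of letters and not a measured site. Only exact matches within 250 bases were sought, so a missing match does not show that a site is missing.

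In the sterol branch, 1 of 19 genes was called, 10 had a log2 fold change above 0 and 9 below. *Tm7sf2* (ENSMUSG00000024799, GRCm38 chr19:6062821-6068373, minus strand) encodes a sterol C14 reductase that acts after lanosterol is demethylated. It stood at 13.7, 13.6 and 12.3 CPM in WT and at 10.5, 8.63 and 8.83 CPM in *Scd2*-m/-m libraries. All *Scd2*-m/-m libraries were below all WT libraries, at 13.2 ± 0.811 against 9.32 ± 1.03 CPM (SD, n = 3 each), or 70.5% of the WT level (log2 fold change -0.50, SE 0.10, 95% interval -0.72 to -0.29, edgeR FDR 0.00346). The call held under all 15 alternative fits, with log2 fold changes from -0.60 to -0.45. *Tm7sf2* shares 532 bases of exon on the same strand with *Vps51*, so counts in that stretch could be assigned to either gene. *Vps51* itself was not called (log2 fold change -0.05, edgeR FDR 0.710).

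The early steps of the branch, from acetyl-CoA to the isoprenoid units, gave both signs. *Acat2*, whose product joins acetyl-CoA units at the start of the mevalonate route, stood at 7.05, 7.63 and 6.49 CPM in WT and at 9.91, 8.77 and 8.03 CPM in *Scd2*-m/-m libraries. Every *Scd2*-m/-m value was above every WT value, yet the FDR of 0.0564 by edgeR missed the threshold (log2 fold change 0.34, 95% interval 0.09 to 0.58). With 1 library left out at a time the FDR ranged from 0.0363, without *Scd2*-m/-m replicate 3 (log2 fold change 0.41), to 0.173, without *Scd2*-m/-m replicate 1 (log2 fold change 0.25), and it passed in the first case alone. *Acat2* is 97.7% identical over 1477 bases of transcript to *Acat3*, which stood at 0.201 to 0.369 CPM, and 98.7% identical over 445 bases to *Tcp1*, which averaged 78.3 CPM. How reads of these stretches were assigned is not known, so the count of *Acat2* is less certain.

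*Idi1*, which converts isopentenyl to dimethylallyl pyrophosphate, stood at 7.78, 6.72 and 5.73 CPM in WT and at 7.83, 8.89 and 9.45 CPM in *Scd2*-m/-m libraries. The highest WT value and the lowest *Scd2*-m/-m value nearly touched, both in replicate 1. The log2 fold change was 0.37 (95% interval 0.10 to 0.64, edgeR FDR 0.0576). It passed the threshold without WT replicate 1 (log2 fold change 0.49, edgeR FDR 0.0187) and without *Scd2*-m/-m replicate 1 (log2 fold change 0.44, edgeR FDR 0.0406). It did not pass without any of the other 4 libraries, where the edgeR FDR was at least 0.158 and reached 0.195 without WT replicate 3 (log2 fold change 0.27). *Idi1* is 100% identical over 684 bases of transcript to the processed pseudogene Gm13502, so the count of *Idi1* is less certain.

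*Hmgcs1*, which makes the HMG-CoA that feeds the committed step, stood at 72.1, 67.4 and 62.9 CPM in WT and at 71.6, 72.7 and 77.8 CPM in *Scd2*-m/-m libraries. The groups overlapped (log2 fold change 0.13, 95% interval -0.0093 to 0.28, edgeR FDR 0.196). The mevalonate kinase gene *Mvk* stood at 20.3, 21.2 and 19.7 CPM in WT and at 20.4, 17.7 and 16.5 CPM in *Scd2*-m/-m libraries, where replicate 1 lay within the WT range. Its edgeR FDR was 0.224 with all libraries (log2 fold change -0.16) and 0.0478 without *Scd2*-m/-m replicate 1 (log2 fold change -0.25). It was 0.518 without *Scd2*-m/-m replicate 3 (log2 fold change -0.096). *Pmvk* and *Mvd*, the next kinase and the decarboxylase, had log2 fold changes of 0.07 and -0.12, and *Fdps*, the farnesyl pyrophosphate synthase gene, one of 0.02. None of the 3 passed the test, and their groups overlapped. *Fdps* shares exon sequence with the annotated gene Gm43738 and has processed pseudogenes at over 95% identity, so its count is less certain.

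The genes of the squalene steps also stayed below the threshold. *Sqle* encodes squalene epoxidase, a rate-limiting enzyme beyond mevalonate. It stood at 43.5, 42.9 and 36.9 CPM in WT and at 37.6, 36.1 and 36.9 CPM in *Scd2*-m/-m libraries, so that WT replicate 3 sat among the *Scd2*-m/-m values. The log2 fold change was -0.16 (95% interval -0.31 to -0.0027, edgeR FDR 0.158). Without WT replicate 3 it was -0.23, with an edgeR FDR of 0.0403, and with any other library left out the edgeR FDR lay between 0.165 and 0.419. *Fdft1*, the squalene synthase gene, had a log2 fold change of -0.03 and *Lss*, the lanosterol synthase gene, one of 0.16, and neither passed the test. *Fdft1* shares 774 bases of exon on the opposite strand with the far more abundant *Ctsb*, which stood at 12379 to 17088 CPM and was called higher (log2 fold change 0.33, edgeR FDR 0.00746). The sources used here do not say whether the counting used strand, and without it reads of the shared stretch cannot be told apart.

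Of the genes that turn lanosterol into cholesterol, *Tm7sf2* alone was called. *Cyp51*, the lanosterol demethylase gene, *Msmo1*, *Nsdhl* and *Hsd17b7*, which remove the C4 methyl groups, and *Sc5d* and *Dhcr7*, which act on the B ring at the end of the route, had log2 fold changes between -0.09 and 0.12. All 6 overlapped between the groups, with FDR from 0.369 to 0.992 by edgeR. *Ebp*, the sterol isomerase gene, stood at 53.2, 51.9 and 53.0 CPM in WT and at 60.2, 57.4 and 58.9 CPM in *Scd2*-m/-m libraries. Its groups were tight and did not overlap, and the difference was small (log2 fold change 0.16, 95% interval 0.03 to 0.28, edgeR FDR 0.0787). *Stard4*, which encodes a cytosolic sterol carrier and not an enzyme, showed the opposite order, with WT libraries at 44.8 to 47.4 CPM and *Scd2*-m/-m libraries at 40.8 to 43.3 CPM (log2 fold change -0.14, edgeR FDR 0.139).

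**Figure D3:**
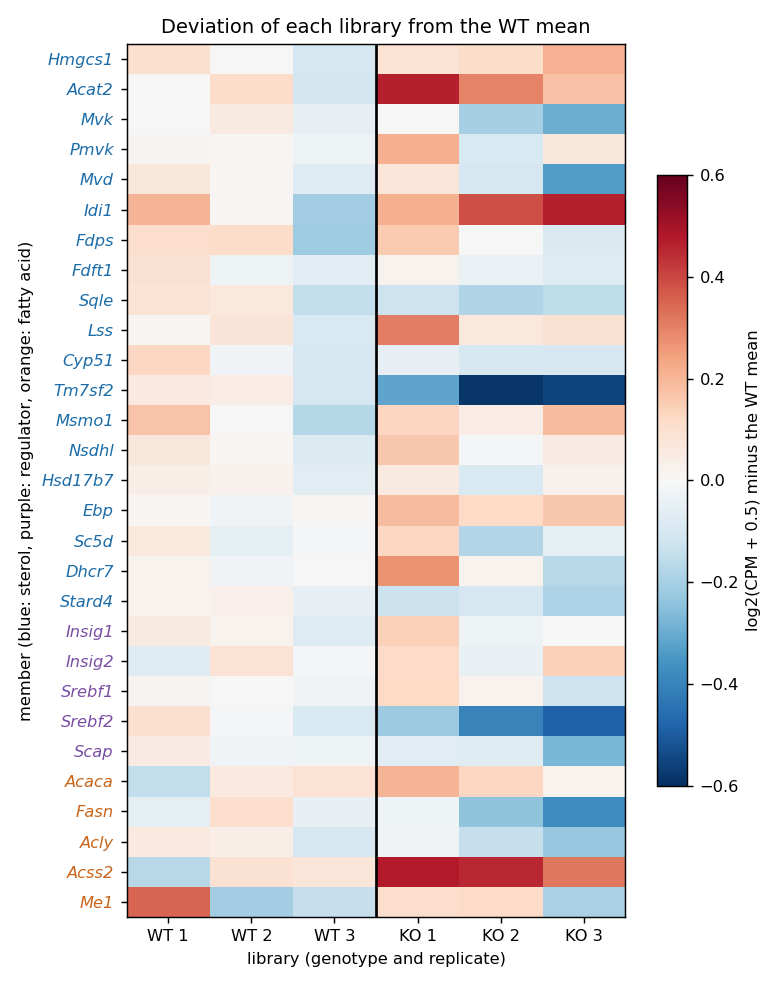
Colours show, for 29 members, log2(CPM + 0.5) in each library minus the WT mean of the gene. Members are in rows by branch (sterol in blue, regulators in purple, fatty acid in orange), libraries in columns, and *Mlxipl* and *Thrsp* are left out for their low counts. The rows of *Tm7sf2* and *Srebf2* are blue and that of *Acss2* red in all 3 *Scd2*-m/-m libraries. Rows of members that were not called also keep 1 colour there, among them *Hmgcs1*, *Acat2*, *Idi1* and *Ebp* (red) and *Sqle*, *Stard4* and *Scap* (blue). Many other rows change colour between *Scd2*-m/-m replicates.

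The sum over the 19 sterol branch genes was 671, 643 and 603 CPM in WT and 681, 627 and 630 CPM in *Scd2*-m/-m libraries, which overlapped. The summed regulators were at 778, 741 and 707 CPM in WT and at 702, 634 and 600 CPM in *Scd2*-m/-m libraries, with *Srebf2* as the largest single term in every library. Replicate 1 was the highest *Scd2*-m/-m library for 15 of 19 sterol branch genes, 4 of 5 regulators and 4 of 6 tested fatty acid genes, against 37.7% of all tested genes. WT replicate 1 was the highest of its group for 14 of 19 sterol branch genes and 4 of 5 regulators but for 2 of 6 tested fatty acid genes, against 36.8% of all tested genes. *Scd2*-m/-m replicate 1 was also the library of its group with the most *Scd2* and *Scd1* transcript. The part of this library in the results was not tested beyond leaving it out, after which *Mvk*, *Idi1* and *Fasn* were called along with the 3 genes above.

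In the fatty acid branch, 1 of 6 tested genes was called. *Acss2* (ENSMUSG00000027605, GRCm38 chr2:155517948-155585724, plus strand) encodes the nuclear and cytosolic synthetase that makes acetyl-CoA from acetate. It stood at 6.10, 7.39 and 7.28 CPM in WT and at 9.78, 9.63 and 8.72 CPM in *Scd2*-m/-m libraries. All *Scd2*-m/-m libraries were above all WT libraries, at 6.93 ± 0.714 against 9.38 ± 0.573 CPM (SD, n = 3 each), or 135% of the WT level (log2 fold change 0.44, SE 0.11, 95% interval 0.20 to 0.67, edgeR FDR 0.0137). The call held under 14 of 15 alternative fits and was lost without *Scd2*-m/-m replicate 2 (log2 fold change 0.42, edgeR FDR 0.0677). *Acss2* shares 395 bases of exon on the opposite strand with *Gss*, which had 2781 counts over the 6 libraries. It shares shorter stretches with *Ggt7* and *Acss2os*, also on the opposite strand. Whether the counting used strand is not known, so the count of *Acss2* is less certain.

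The other route to cytosolic acetyl-CoA runs through citrate and ATP citrate lyase, encoded by *Acly*. *Acly* stood at 215, 212 and 193 CPM in WT and at 204, 188 and 177 CPM in *Scd2*-m/-m libraries, with overlap (log2 fold change -0.13, 95% interval -0.27 to 0.02, edgeR FDR 0.230). *Acaca*, the acetyl-CoA carboxylase gene of the committed step, stood at 32.7, 37.7 and 38.5 CPM in WT and at 41.8, 39.6 and 36.7 CPM in *Scd2*-m/-m libraries, also with overlap (log2 fold change 0.12, 95% interval -0.05 to 0.28, edgeR FDR 0.338). *Fasn*, the fatty acid synthase gene, stood at 95.4, 106.4 and 95.5 CPM in WT and at 97.2, 83.7 and 76.2 CPM in *Scd2*-m/-m libraries. *Scd2*-m/-m replicate 1 lay inside the WT range of *Fasn*, and the other 2 lay below it. With all libraries the difference missed the threshold (log2 fold change -0.21, 95% interval -0.39 to -0.03, edgeR FDR 0.105). Without *Scd2*-m/-m replicate 1 it passed (log2 fold change -0.31, edgeR FDR 0.0111). The change was smaller without *Scd2*-m/-m replicate 3 (log2 fold change -0.13, edgeR FDR 0.310) and without WT replicate 2 (log2 fold change -0.16, edgeR FDR 0.347).

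*Me1*, the malic enzyme gene that supplies NADPH, was low and variable, at 3.04 to 4.69 CPM in WT and 3.06 to 3.92 CPM in *Scd2*-m/-m libraries (log2 fold change -0.01, 95% interval -0.40 to 0.38). *Me1* is 98.4% identical over 1716 bases of transcript to the processed pseudogene Gm7049. *Acaca* is 99.2% identical over 6118 bases to the processed pseudogene Gm5182, so the counts of both genes are less certain. *Mlxipl*, which encodes the glucose-responsive factor ChREBP, rested on 5 to 24 counts per library, or 0.0984 to 0.477 CPM, and its interval of -0.78 to 1.53 allows a change either way. *Thrsp*, a lipogenic gene of liver and fat, had 2 counts in WT replicate 2 and 0 in the other 5 libraries. A count of 0 allows up to 3 counts, or 0.0521 to 0.0607 CPM in those 5 libraries, for counting error only. Excluding *Mlxipl*, whose sign rests on few counts, moves the branch median from 0.05 to -0.01.

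**Figure D4:**
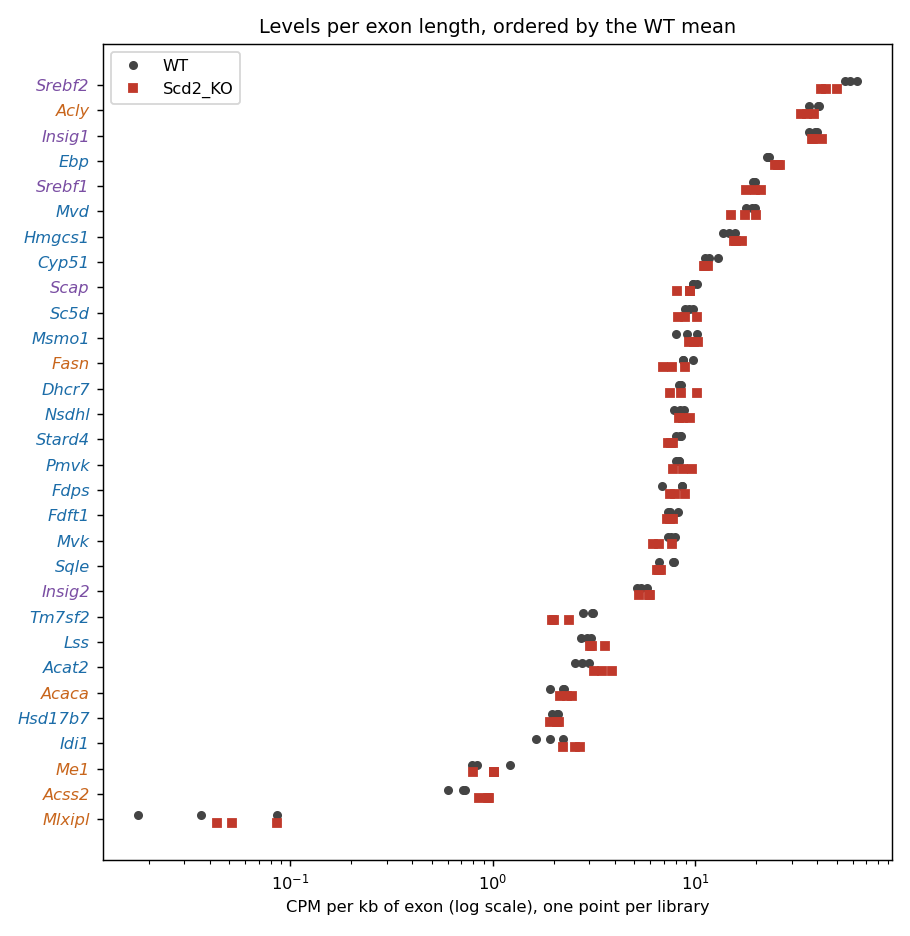
Levels are plotted as CPM per kb of exon on a log axis, 1 point per library (WT as dark circles, *Scd2*-m/-m as red squares), in the order of the WT mean. *Srebf2* is at the top and *Mlxipl* at the bottom, *Thrsp* is not drawn, and *Srebf2* and *Tm7sf2* are shifted left and *Acss2* right in *Scd2*-m/-m.

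On a scale of CPM per kb of exon, which allows a rough comparison between genes, *Srebf2* had the highest WT level of the set. It stood at 58.6 ± 3.83 (SD, n = 3), without overlap with the next gene. The length used joins all annotated exons of a gene and can exceed that of its main transcript, so levels and ranks depend on the annotation. *Acly* at 39.2 ± 2.31 and *Insig1* at 38.3 ± 1.80 followed and overlapped each other. *Ebp* at 22.8 ± 0.300 was the highest of the sterol enzymes, above *Srebf1* at 19.5 ± 0.251, which overlapped with *Mvd* at 18.9 ± 0.984. *Hmgcs1* at 14.7 ± 1.01 and *Cyp51* at 11.95 ± 0.956 came next. From *Scap* at 9.89 to *Sqle* at 7.41, 12 genes formed a band in which most neighbours overlapped. At the low end, *Acss2* at 0.681 ± 0.0702 stood well below *Acly*, the other source of cytosolic acetyl-CoA, also in *Scd2*-m/-m libraries (0.923 ± 0.0564 against 35.9 ± 2.58). *Srebf2* kept the highest level in *Scd2*-m/-m libraries, at 45.4 ± 4.36, while *Tm7sf2* moved from rank 22 to rank 26 of 31.

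Genes of the same pathways that are not members were read from 2 further lists. Of 10 tested genes of sterol storage, oxysterols and transport 2 were called, both higher. *Soat1*, which esterifies cholesterol for storage, stood at 347, 351 and 346 CPM in WT and at 399.6, 413 and 440.1 CPM in *Scd2*-m/-m libraries. The groups did not overlap, with an SD of 2.73 CPM in WT and 20.6 CPM in *Scd2*-m/-m (log2 fold change 0.26, edgeR FDR 0.00775). *Gramd1b*, a carrier of sterol from the plasma membrane, had a log2 fold change of 0.33 (edgeR FDR 0.0429).

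Of 23 genes that supply or regulate fatty acid synthesis 6 were called, 3 in each direction. *Nr1h3*, which encodes the oxysterol receptor LXR alpha, an activator of *Srebf1* and the *Scd* genes, stood at 55.0, 42.4 and 39.0 CPM in WT and at 33.6, 28.6 and 28.1 CPM in *Scd2*-m/-m libraries (log2 fold change -0.59, SE 0.13, edgeR FDR 0.0112). The groups did not overlap. *Prkab1*, a subunit of the AMP-activated kinase that inhibits acetyl-CoA carboxylase, and *Stk11*, which activates that kinase, had log2 fold changes of -0.34 and -0.21 (edgeR FDR 0.00182 and 0.0402). On the other side, *Idh1* and *G6pdx*, which make NADPH, had log2 fold changes of 0.37 and 0.20 (edgeR FDR 0.00152 and 0.0412). *Mid1ip1*, which activates acetyl-CoA carboxylase, had one of 0.24 (edgeR FDR 0.0107). The markers of dividing cells named above rose in the same libraries, and their part in these changes was not tested. The counts in both lists can be read against the 17.5% of all tested genes, and no list was tested as a whole.

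**Figure D5:**
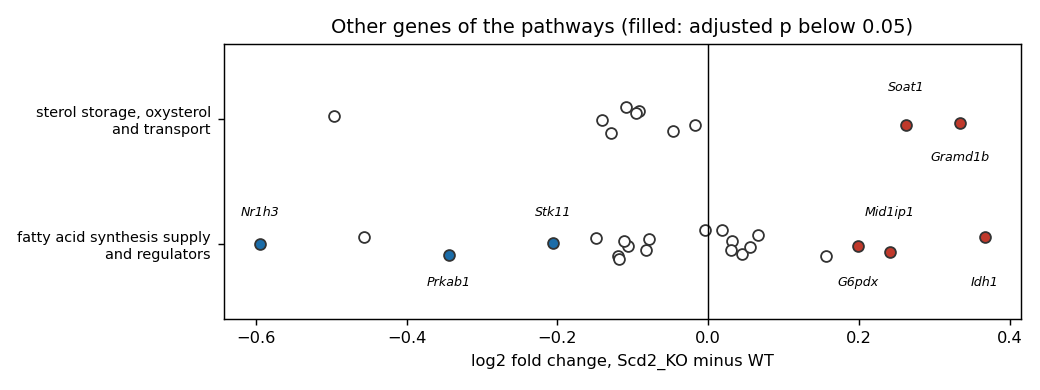
The log2 fold changes (*Scd2*-m/-m minus WT) of genes outside the set are drawn for the lists of sterol storage, oxysterols and transport and of fatty acid synthesis supply and regulators, filled where the FDR was below 0.05 and named. *Nr1h3* lies farthest to the left of the called genes and *Idh1* farthest to the right, and *Acacb* is not drawn because 1 library sets its value.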

How the data were processed

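The authors aligned reads of poly(A) libraries with STAR to the Ensembl release 76 build of GRCm38 and deposited unnormalized counts per gene, in whole numbers, for 3 WT and 3 *Scd2*-m/-m libraries. No source used here names the counting tool or says whether it used strand. Their table of comparisons (log2 fold changes, p-values, log2 CPM; the submitters' processing notes name edgeR and limma) was not used. After 276 repeated entries were removed, 40481 genes remained, of which filterByExpr kept 14778 for testing. These were fitted with edgeR 4.0.16 in R 4.3.3 (TMM factors, robust glmQLFit, glmQLFTest). The p-values were adjusted by Benjamini-Hochberg over the 14778 tested genes (FDR). CPM use TMM-scaled library sizes. Intervals are 95% intervals of the log2 fold change. Exon lengths are the union of all annotated exons of a gene in GENCODE for GRCm38, and upstream sequences come from RefSeq (GRCm38.p6). Transcripts were compared with BLAST 2.17.0 (at least 95% identity over 200 bases). Of counts from 1 to 20, 60.9 to 64.9% per library were even, and the sources used here do not define what 1 count represents. Values in every library are given for called members, regulators, committed-step genes and members whose call depended on a library or setting, and other pathway genes are named where called. Alternatives were RLE and upper-quartile factors, DESeq2 1.42.0, limma-voom (limma 3.58.1) without and with quality weights, other count filters, halved counts, a replicate block, stricter thresholds and each library left out. The members and gene lists were chosen with earlier results of these data known, and *Acly*, *Stard4*, *Vps51*, *Acat3*, *Ctsb* and *Tcp1* were named with values after these were seen. The lists of other sterol and isoprenoid enzymes and of SREBP processing were not used, because some of their genes are not reported here.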

Additional observations from a re-analysis of the deposited data

How the results depend on the processing

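Against 2585 genes called over all genes, limma-voom with quality weights called 4507, an FDR below 0.01 left 1331 and the study's pair of thresholds 98. Leaving out 1 library gave 1440 (without *Scd2*-m/-m replicate 2) to 2567 calls, and 1490 without WT replicate 2. In the sterol branch, 1 gene was called with all libraries, 2 with upper-quartile factors or DESeq2, 6 with quality weights, 3 with no filter on low counts, 0 with the pair of thresholds, and 1 to 3 with a library left out. In the fatty acid branch the 1 call became 2 with quality weights or no filter, 0 at an FDR below 0.01 or with the pair of thresholds, and 0 to 2 with a library left out (0 without *Scd2*-m/-m replicate 2, which loses *Acss2*, and 2 without *Scd2*-m/-m replicate 1, which adds *Fasn*). The 15 alternative fits, without the stricter thresholds, gave 448 values of single members at an FDR of 0.05. Of these, 429 kept their side of the threshold, 18 passed it only there and 1 lost it, and no called value changed sign. The cause of these shifts was not tested. Over all tested genes, same-numbered libraries did not deviate together (correlations 0.0530, -0.0196 and 0.0398), so the numbers were not taken as pairs. Within the set, the median deviation from the WT mean fell from replicate 1 to 3 in both genotypes for the sterol branch and the regulators. In the sterol branch it was 0.064, 0.012 and -0.081 in WT and 0.123, -0.038 and -0.058 in *Scd2*-m/-m. The fatty acid branch did not show this order, and its origin was not tested. With the replicate block 2974 genes were called, and 2 in the sterol branch, where *Acat2* joined *Tm7sf2*. *Mlxipl* and *Thrsp* had too few counts for a change to be read.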

Other observations

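*Acacb*, the gene of the mitochondrial acetyl-CoA carboxylase, falls outside the rule for named genes and was chosen after its values were seen. It stood at 0.645, 0.434 and 0.610 CPM in WT libraries and at 0.896, 4.00 and 0.585 CPM in *Scd2*-m/-m libraries, so that replicate 2 alone stood apart (log2 fold change 1.67, edgeR FDR 0.251).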
